A study of Mus musculus with 10 samples.

Results

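The comparison described here is between testes whose labels read conditional knockout (cKO) of Lsm7 and wild-type testes (WT) at postnatal day 7 (P7), across all genes of the deposited count table. It rests on 5 of the 10 libraries of the series: 3 cKO libraries and 2 WT libraries, chosen by their column names, and the other 5 libraries are the same genotypes at postnatal day 4 (P4). All animals were mice of strain C57BL/6. The cKO genotype is written Lsm7-flfl-stra8 in the labels, the notation of a floxed Lsm7 combined with a Stra8 construct, and the WT libraries carry no further allele or agent. The tissue label is testis and the cell type label germ cell, but the protocol describes RNA of testis with no sorting step, and the libraries held germ-cell, Sertoli-cell and Leydig-cell transcripts alike, so they are treated as whole testis. In such bulk samples, fewer cells of a type and less RNA per cell cannot be told apart. Neither separate animals nor batches are labelled, so the spread behind each p-value is that between libraries and may be technical.

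Lsm7 is a small protein of the LSm rings: the nuclear ring binds the end of U6 small nuclear RNA, a catalytic part of the spliceosome, and the cytoplasmic ring promotes removal of the mRNA cap during decay. The series addresses LSM7 in the modification of spliceosomal RNAs and in the differentiation of spermatogonial stem cells. At P7 the mouse seminiferous tubule holds Sertoli cells and spermatogonia, some undifferentiated and some already committed by retinoic acid, which induces Stra8, while meiosis and sperm formation come later. Stra8-driven Cre lines are active in the germ line from the first days after birth, so transcripts of somatic cells come from cells in which the construct is not meant to act.

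The 5 libraries held between 28872557 and 39283368 assigned reads, and levels are given as counts-per-million (CPM) scaled by TMM factors, which are trimmed means of the ratios between libraries. The 2 P7 WT libraries differed by little more than counting noise, with a chi-square of 1.98 per degree of freedom over genes, where the 2 P4 WT libraries gave 61.43 and pairs of P7 cKO libraries gave 23.49 to 122.9. They were therefore summed and counted as 1 sample, and everything that sets this sample apart cannot be told apart from an effect of genotype at P7. Among the cKO libraries, replicate 1 stood apart from replicates 2 and 3, with 117.3 and 122.9 against 23.49 between the other two, so results are also given without it. Ribosomal precursor RNA (Rn45s) took 0.143% of the reads in each WT library and 0.347% to 0.6% in the cKO libraries.

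The base composition of the genes ran through the whole comparison. Genes tested were put into quintiles by the GC content of their transcript, which ranged from 29.63% to 82.19%. From the lowest quintile to the highest, the median log2 fold change of cKO over WT at P7 was -0.76, -0.32, 0.04, 0.42 and 0.81. At P4 the same quintiles ran only from -0.20 to 0.23. Genes in the lowest quintile deviated by a median of 0.63 on the log2 scale in the P7 WT sample and genes in the highest quintile by -0.60, while in the other 8 samples of the fit no quintile deviated by more than 0.24. Exon length moved with the result as well, with medians of 0.51 in the quintile of shortest genes and -0.33 in the quintile of longest genes. Along exon length the WT sample ran from -0.31 to 0.27 and cKO replicate 1 the other way, from 0.27 to -0.18. The GC trend and the genotype meet in the same single WT sample, and the part of either trend in any P7 result was not tested beyond refitting with offsets, that is, with each library's smooth trend on length and GC removed.

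**Figure D1:**
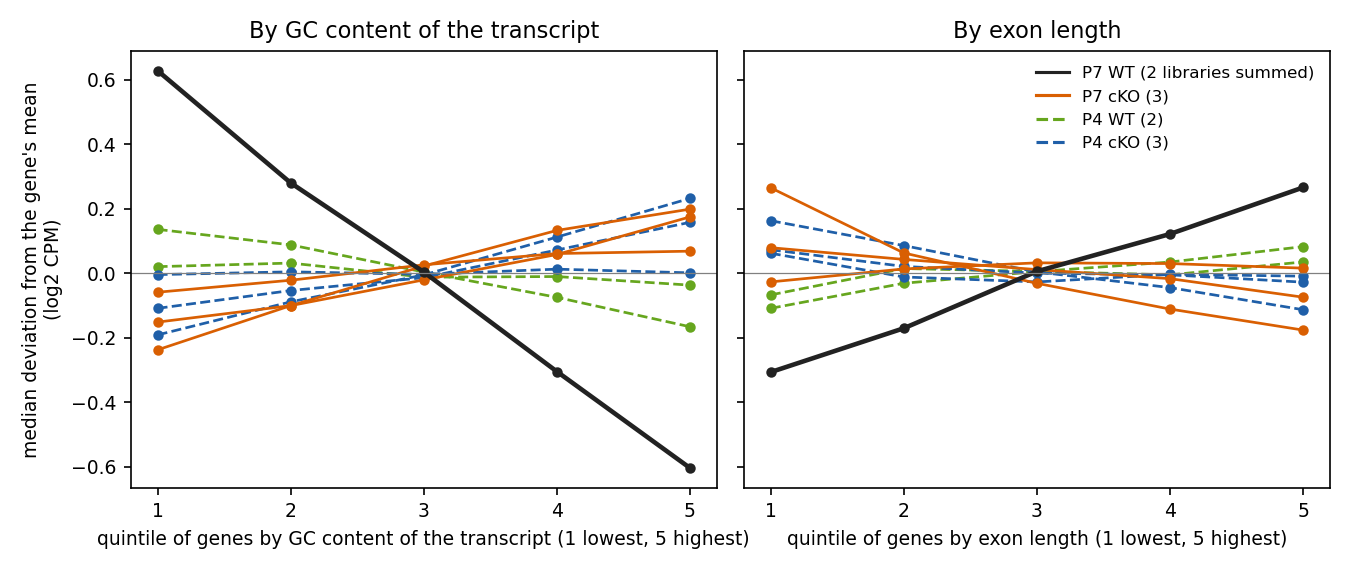
Median deviation of each sample from the gene's mean over samples (log2 CPM, vertical axis) in quintiles of genes by GC content of the transcript (left) and by exon length (right). Across the GC quintiles the summed P7 WT sample falls from 0.63 to -0.60 and the 8 other samples stay within 0.24 of 0, while across the length quintiles P7 cKO library 1 falls from 0.27 to -0.18 as the WT sample climbs from -0.31 to 0.27.

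Stretches of coding sequence show what this composition looks like in 4 called genes. Each line gives 90 bases from the middle of the coding sequence, 5′ to 3′, from GENCODE M21 transcripts (GRCm38), with G and C in capitals. Sycp1 (chr3:102818499-102936100), which was lower in cKO, and Rbmxl2 (chr7:107209445-107210916), which was higher, follow the trend. Alas2 (chrX:150547417-150570622), which was lower, and Rpl31 (chr1:39367851-39371910), which was higher, go against it by the GC content of the whole transcript, 53.3% and 46.0%, and their coding sequences lie nearer the middle.
Sycp1: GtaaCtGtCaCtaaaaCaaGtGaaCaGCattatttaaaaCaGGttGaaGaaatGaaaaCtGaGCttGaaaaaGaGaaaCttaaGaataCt
Rbmxl2: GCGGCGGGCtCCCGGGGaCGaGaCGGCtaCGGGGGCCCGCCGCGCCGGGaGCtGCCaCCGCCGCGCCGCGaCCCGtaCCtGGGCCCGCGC
Alas2: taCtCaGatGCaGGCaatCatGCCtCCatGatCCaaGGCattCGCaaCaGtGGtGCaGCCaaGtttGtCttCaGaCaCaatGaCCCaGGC
Rpl31: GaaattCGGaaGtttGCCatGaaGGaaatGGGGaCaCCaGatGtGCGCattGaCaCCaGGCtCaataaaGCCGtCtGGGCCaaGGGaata
G and C made up 30% of the Sycp1 stretch and 85.6% of the Rbmxl2 stretch, against 51.1% for Alas2 and 50% for Rpl31. Over the whole coding sequence the GC content was 34.5% in Sycp1, 73.4% in Rbmxl2, 52.4% in Alas2 and 50.7% in Rpl31.

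The targeted gene did not separate the groups at P7. Lsm7 stood at 33.3 and 33.4 CPM in the WT libraries and at 45.2, 26.0 and 20.3 in cKO replicates 1, 2 and 3. Replicate 1 was above both WT libraries and replicates 2 and 3 below them, so the groups overlapped. The log2 fold change was -0.13 ± 0.37 (SE, 3 cKO libraries against 1 WT sample), with an adjusted p of 0.835 by edgeR's quasi-likelihood test. With offsets and without cKO replicate 1, a combination chosen after the data were seen, it was -1.22 ± 0.19. That was the only 1 of 22 alternative settings in which Lsm7 had an adjusted p under 0.05. At P4 the libraries labelled cKO held 44.9, 50.5 and 43.6 CPM against 36.2 and 25.7 in WT, a log2 fold change of 0.58 (adjusted p 0.215). The counts cover all exons of the gene, and a transcript that lost only part of them would still be counted, so these values do not settle whether the allele was recombined. The genotypes are therefore given as labelled.

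Across the 18419 genes tested at P7, 1338 were higher in cKO (7.26%) and 1791 lower (9.72%), 3129 in all (17%), at an adjusted p under 0.05. In each of the 3129 genes all cKO libraries lay on 1 side of both WT libraries. This adds no support, since these genes were picked by a low p and the WT libraries act as 1 sample. The calls split by composition. The median GC content was 58.16% in the higher genes and 42.49% in the lower genes, against 50.24% over all genes tested, and 95.7% of the higher genes lay above that median and 96.7% of the lower genes below it. Of the genes higher in cKO, 978 fell in the quintile richest in GC and 10 in the poorest, and of the genes lower in cKO, 5 fell in the richest and 1233 in the poorest. Spearman's rho between log2 fold change and GC content was 0.671 across genes at P7 and 0.239 at P4, as a description, since the genes share the same libraries.

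With length and GC offsets 3 genes remained called (0.0163%), all lower in cKO, and 2373 had an unadjusted p under 0.05. The 3 genes, Gm8615, Zxda and Rab21, were each matched to a transcript well under the counted exon length, so their GC content is unsure. Ignoring sign, the 3129 genes called had a median change of 1.08 on the log2 scale, and of 0.37 with offsets, and 2803 of them (89.6%) kept their sign. Leaving out cKO replicate 1 raised the calls to 2370 higher (12.9%) and 2551 lower (13.9%) of 18314 genes. With offsets as well, 267 were higher (1.46%) and 439 lower (2.4%), and 338 of these 706 were also called, in the same direction, in the fit of all libraries without offsets. That combination was chosen after the data were seen. The P7 libraries on their own, with 1 WT sample and 3 cKO libraries, gave 0 calls by edgeR, with 4834 genes at an unadjusted p under 0.05, since the spread in the 9-sample fit is shared with P4. Scaling by library totals in place of TMM turned the split to 1744 higher and 1402 lower and moved the median log2 fold change of all genes from 0.08 to 0.19. Leaving out cKO replicate 2 left 323 higher and 638 lower, and leaving out P4 cKO replicate 2 left 731 and 1281. No member of any gene list below passed the test with offsets and all libraries.

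**Figure D2:**
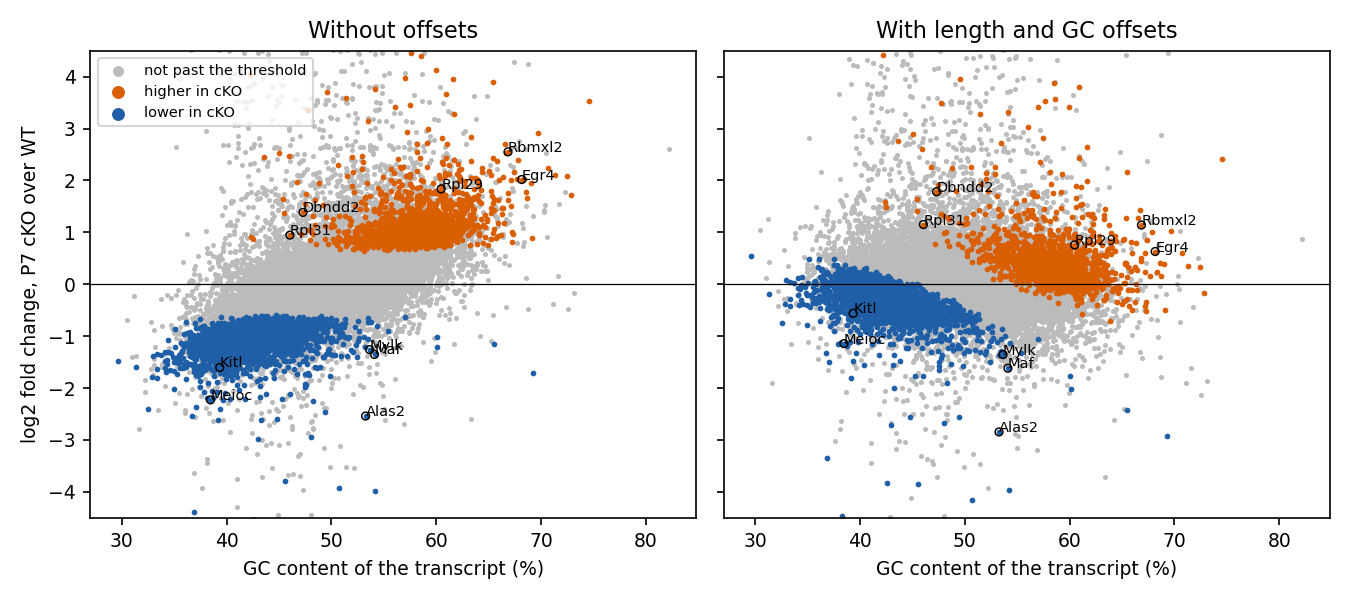
Log2 fold change of P7 cKO over WT (vertical axis) against the GC content of the transcript in percent (horizontal axis), 1 point per gene tested, without offsets (left) and with length and GC offsets (right). Colours mark genes past the threshold without offsets in both panels, genes beyond the vertical axis are not drawn, and Alas2, Mylk and Maf stay low and Rpl31 and Dbndd2 stay high in both panels while Kitl, Egr4 and Rpl29 move towards 0.

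Among germ-line genes, those of meiotic entry were lower in cKO: 6 of the 10 tested fell and 0 rose, with a list median of -1.10 against 0.08 over all genes. Over all genes 9.72% were lower and 7.26% higher. In the quintile poorest in GC 33.8% were lower, with a median of -0.76. These genes commit spermatogonia to meiosis. Meioc, which with Ythdc2 clears mitotic transcripts at the start of meiosis, had 41.7 and 42.9 CPM in WT and 8.2, 9.55 and 9.34 in cKO. The cKO libraries lay close together and far below WT, a log2 fold change of -2.23 ± 0.27 (adjusted p 0.00642), and Meioc was also lower at P4 (-1.09, adjusted p 0.026). With offsets the P7 value was -1.14, and without cKO replicate 1 as well it was -1.09 with an adjusted p of 0.0289.

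Ythdc2, the RNA helicase that partners Meioc, held 53.3 and 56.6 CPM in WT and 12.6, 18.7 and 22.9 in cKO, a log2 fold change of -1.60 ± 0.35. Mybl1, the transcription factor A-MYB of pachytene spermatocytes, fell by 1.68 on the log2 scale, from 84.3 and 87.6 to between 22.4 and 34.3 CPM. Dazl, an RNA-binding protein that licenses germ cells for meiosis, went from 849 and 850 CPM to 402, 376 and 400, and its log2 fold change of -1.11 ± 0.30 became -0.02 with offsets. Bnc1 and Rbm46 fell as well, with log2 fold changes of -1.06 and -1.26. The list's genes had a median GC content of 41.6%, and its median was -0.60 with offsets. Stra8 itself, the retinoic acid target that starts the programme, had 65.8 and 68.6 CPM in WT and 55.7, 86.9 and 58.4 in cKO, with overlapping groups.

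Genes of the later steps of meiosis were mixed. In meiotic recombination 3 of 23 fell and 1 rose, shares near the 9.72% lower and 7.26% higher over all genes. The list median of -0.41 became 0.07 with offsets. Spata22, which loads onto single-stranded DNA with MEIOB, had 9.8 and 9.11 CPM in WT and 1.88, 1.83 and 2.43 in cKO. Its log2 fold change was -2.20 ± 0.30 (adjusted p 0.00642), -1.55 with offsets and -1.46 with offsets and without cKO replicate 1 (adjusted p 0.0212). The P4 libraries gave -2.39 for the same gene. Shoc1, a crossover factor, had log2 fold changes of -1.27 at P7 and -2.35 at P4, both past the threshold, Hfm1, a crossover helicase, fell by 1.25 at P7, and Rec114, which helps place double-strand breaks, rose by 1.08.

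In the synaptonemal complex and meiotic cohesin list 3 of 19 fell and 1 rose, where 9.72% of all genes were lower and 7.26% higher. Sycp1 went from 269 and 265 CPM to 123, 58.8 and 73.1, with cKO replicate 1 the highest of the 3. Its log2 fold change of -1.65 ± 0.32 was -0.38 with offsets. Hormad1 and Sycp2 fell, with log2 fold changes of -1.42 and -1.18, and Rec8, the meiotic cohesin, rose by 1.17. Sycp3 had a value of -0.79 with an adjusted p of 0.0955. In the piRNA list 2 of 24 fell and 0 rose, with the lower share near the 9.72% over all genes. Those 2 were Tex15 at -1.15 and Rnf17 at -0.82, and their values with offsets were 0.06 and 0.15. Tex15 has a transcript of 37.4% GC.

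Spermatogonial genes did not move as a block, where 7.26% of all genes were higher and 9.72% lower. Of 30 genes of undifferentiated spermatogonia, 4 rose and 2 fell, with a median of 0.50 and of 0.23 with offsets. Egr4, a zinc-finger factor of these cells, had 21.9 and 23.1 CPM in WT and 77.8, 111 and 85.2 in cKO, a log2 fold change of 2.02 ± 0.39 (adjusted p 0.0101). With offsets it was 0.63, and the Egr4 transcript is 68.2% GC. Utf1, Sox3 and Plvap rose by 1.40, 1.18 and 1.52, and each was at 0.60 or less with offsets. Foxo1, which maintains the stem-cell pool, fell from 102 and 104 CPM to 57.3, 55.6 and 52.9, and Taf4b fell by 0.73.

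Gfra1, the receptor for the niche factor GDNF, had 14.1 and 13.9 CPM in WT and 10.9, 24.1 and 24.3 in cKO, below WT in replicate 1 and above it in the other two. Its log2 fold change was 0.50 with an adjusted p of 0.458. Zbtb16 and Id4, which also mark stem and progenitor cells, had values of 0.19 and -0.25, neither past the threshold.

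Of 14 genes of spermatogonial differentiation, 2 rose and 0 fell, where 7.26% of all genes were higher and 9.72% lower. The list median of 0.16 was -0.05 with offsets. Uchl1, a ubiquitin hydrolase of spermatogonia, went from 178 and 186 CPM to 420, 428 and 333, a log2 fold change of 1.11 ± 0.25 that was 0.31 with offsets. Sohlh1, a transcription factor that drives differentiation, went from 29.2 and 29.9 CPM to 61.8, 78.2 and 54, a change of 1.13 ± 0.28 and of 0.26 with offsets. Kit, the receptor that marks differentiating spermatogonia, had 119 and 122 CPM in WT and 92.4, 95.8 and 90 in cKO, and its value of -0.38 did not pass (adjusted p 0.189). Ddx4, expressed throughout the germ line, had a value of -0.46 (adjusted p 0.199) and of 0.33 with offsets.

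Transcripts of spermatids, cells that a P7 testis does not yet hold, were read in the cKO libraries. Of 24 such genes 23 were tested, 9 rose and 0 fell, against 7.26% higher and 9.72% lower over all genes. In the WT sample 8 had no read, so these were tested only through reads in other libraries and could not be lower in cKO. The 23 genes summed to 14.2 CPM in WT and to 58.7, 32.9 and 27.8 in cKO, highest in replicate 1. Prm2, a protamine that packs sperm DNA, had 0 reads in WT and 226, 74 and 84 in cKO, at least 64.8-fold higher against a floor of 3 counts in the summed WT sample. Prm1, Tnp2, Gsg1 and Smcp were at least 33.4-fold, 33.4-fold, 30.9-fold and 19.2-fold higher on the same floor. With a floor of 6 counts, for 3 read pairs with both mates counted, these bounds are 32.4-fold for Prm2 and 16.7-fold, 16.7-fold, 15.4-fold and 9.62-fold for the other 4, and without cKO replicate 1 that of Prm2 is 18.8-fold and those of the others 5.22-fold to 12-fold. Odf1 and Ldhc rose by 3.60 and 3.36 on the log2 scale from values under 0.41 CPM. The list median was 2.97, or 2.13 with genes without WT reads at their bound, and 1.96 at the floor of 6 counts. With offsets and without cKO replicate 1, 7 of the 23 were higher, while at P4 none of them passed in either direction and the median was -0.93. Their source was not tested.

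**Figure D3:**
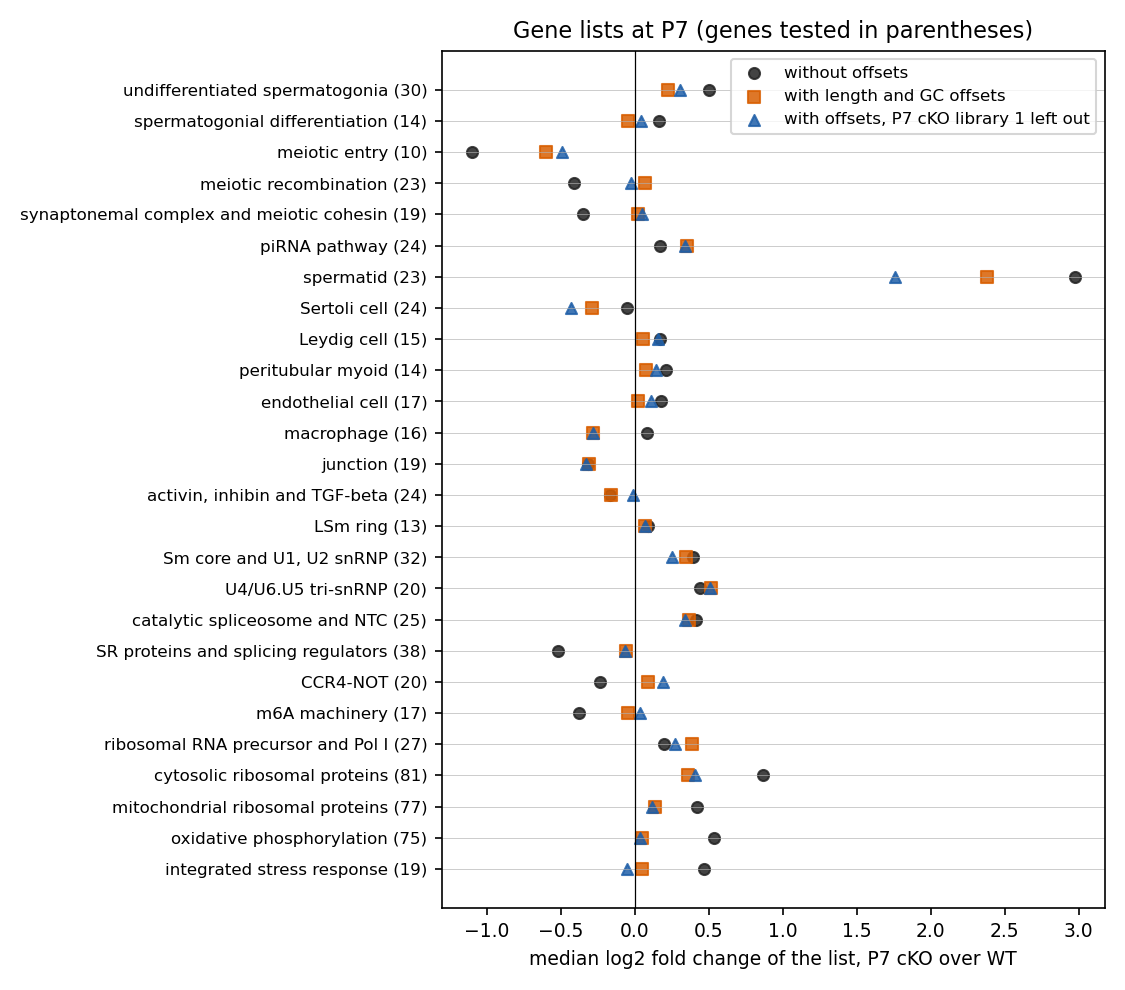
Median log2 fold change of P7 cKO over WT (horizontal axis) for gene lists, with the number of genes tested in parentheses, without offsets (circles), with length and GC offsets (squares) and with offsets and P7 cKO library 1 left out (triangles). Of the lists drawn, the spermatid list lies highest and meiotic entry lowest under all 3 settings, and oxidative phosphorylation, SR proteins and m6A machinery move to near 0 with offsets.

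The machinery that Lsm7 belongs to was measured next. Of 13 genes of the LSm family, some of them outside the rings of Lsm7, 1 rose and 1 fell, with a median of 0.09. Over all genes 7.26% were higher and 9.72% lower. Lsm4, which sits in both rings with Lsm7, went from 27.9 and 28.1 CPM to 44.5, 85.8 and 55.7, a change of 1.15 ± 0.34 that was 0.07 with offsets. Lsm14a, an mRNA-repression protein of processing bodies that is not a subunit of these rings, fell by 0.85.

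Core spliceosome genes were more often higher than lower, where 7.26% of all genes were higher and 9.72% lower. In the Sm core with U1 and U2 proteins 7 of 32 rose and 4 fell, in the U4/U6.U5 tri-snRNP 4 of 20 rose and 1 fell, and in the catalytic spliceosome with the Prp19 complex (NTC) 6 of 25 rose and 0 fell. Their medians of 0.39, 0.44 and 0.41 were 0.34, 0.52 and 0.37 with offsets. Snrnp70, the U1 protein that recognises the 5′ splice site, had 169 and 179 CPM in WT and 342, 494 and 401 in cKO, a change of 1.24 ± 0.28 and of 0.71 with offsets. Sf3b5, a subunit of the U2 branch-site complex, had 21.8 and 23.6 CPM in WT and 56.4, 65 and 55.1 in cKO, a change of 1.37 ± 0.22 (adjusted p 0.00643). Cactin, Dhx38 and Sart1, factors of the assembled spliceosome, rose by 1.59, 1.28 and 1.19, and their values with offsets were 0.67, 0.81 and 1.02. The genes that fell in these lists include the U1-associated Luc7l3, at -1.21, and the kinase Prpf4b, at -1.05, and they were at -0.37 and -0.30 with offsets.

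Regulators of splice-site choice went the other way: of 38 SR proteins and splicing regulators 10 fell and 0 rose, with a median of -0.52. Over all genes 9.72% were lower and 7.26% higher. Mbnl1, which controls developmental exon choice, went from 280 and 279 CPM to 79.9, 99.8 and 122, a log2 fold change of -1.47 ± 0.27. Mbnl2, Srsf10 and Srsf11 fell, with log2 fold changes of -1.10, -1.01 and -0.998. The list's median GC content is 44.8%, its median was -0.06 with offsets, and 0 of its genes passed by edgeR with offsets and without cKO replicate 1.

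Among mRNA-turnover genes, 3 of 20 in CCR4-NOT fell and 0 rose, and 5 of 17 in the m6A list fell and 0 rose. The shares over all genes were 9.72% lower and 7.26% higher. In decapping and decay, the step that the cytoplasmic LSm ring serves, 1 of 28 rose and 3 fell, and in nonsense-mediated decay 4 of 19 rose and 1 fell. Cnot7, a deadenylase that shortens poly(A) tails, had 576 and 579 CPM in WT and 249, 148 and 183 in cKO, a log2 fold change of -1.58 ± 0.25. It was -0.75 with offsets and -0.99 without cKO replicate 1 as well (adjusted p 0.012). Ythdf3, an m6A reader, fell by 1.28, and was at -0.18 with offsets. The medians of the CCR4-NOT and m6A lists, -0.24 and -0.38, became 0.09 and -0.05 with offsets.

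Cytosolic ribosomal protein genes that passed the test were all higher in cKO. Of 81 cytosolic ribosomal protein genes 39 rose and 0 fell, against 7.26% higher over all genes, and all 81 had a positive log2 fold change, with a median of 0.87 that was 0.36 with offsets. These 81 genes summed to 28043 CPM in WT and 52681, 53457 and 44122 in cKO. Rpl29 went from 162 and 160 CPM to 545, 645 and 537, a change of 1.84 ± 0.24, of 0.76 with offsets, and of 0.83 without cKO replicate 1 as well (adjusted p 0.0414). Rpl13 went from 283 and 282 CPM to 774, 1028 and 801, a change of 1.62 ± 0.25 and of 0.65 with offsets. Rpl36 rose by 2.09, with 407 CPM in cKO replicate 1 against 190 in replicate 3. At P4, with other libraries of the same fit, 48 of the 81 rose and 0 fell, where 4.84% of all genes were higher and 4.13% lower. The P4 median of the list was 0.84, and 0.50 with offsets. Ribosomal protein genes have many near-identical pseudogenes, so the level of each is uncertain.

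Translation factors were even, with 4 higher and 4 lower of 46, where 7.26% of all genes were higher and 9.72% lower. Mitochondrial ribosomal proteins gave 17 of 77 higher and 0 lower, and oxidative phosphorylation 18 of 75 higher and 0 lower, with medians of 0.42 and 0.53 that were 0.14 and 0.05 with offsets. Uqcrq, a subunit of complex III, had 36.5 and 34.2 CPM in WT and 106, 82.5 and 64 in cKO, and its change of 1.25 ± 0.28 was 1.18 with offsets. Cox6a1, a subunit of complex IV, rose by 1.33, and was at 0.11 with offsets. Rn45s, the ribosomal RNA precursor, had 1457 CPM in both WT libraries and 3746, 5715 and 3311 in cKO, a change of 1.55 ± 0.46 (adjusted p 0.0413). At P4 its log2 fold change was 2.46. Of 27 genes of ribosomal RNA synthesis, Rn45s included, 7 rose and 0 fell. Nop53, a ribosome assembly factor named after its values were seen, rose by 1.40 at P7 and 1.46 at P4. Of 47 replication-dependent histone genes 2 rose, among them H2ac13, with 0 WT reads and 104, 60 and 27 reads in cKO. Histone genes share near-identical sequences, their mRNAs lack poly(A) tails, and the list's summed level was 41.6 CPM in WT and 119, 44.7 and 34.9 in cKO, so cKO replicate 1 stood apart.

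In the somatic compartment, 3 of 24 Sertoli-cell genes fell and 2 rose, shares near the 9.72% and 7.26% over all genes, and the list median was -0.05. Kitl, the ligand of Kit that spermatogonia need to differentiate, had 705 and 704 CPM in WT and 225, 210 and 260 in cKO. Its log2 fold change was -1.60 ± 0.24 (adjusted p 0.00642) and -0.56 with offsets, and its transcript is 39.3% GC. Sox9, the Sertoli-cell fate factor, went from 178 CPM in each WT library to 90.5, 108 and 105, a change of -0.82 ± 0.24 (adjusted p 0.0402), whereas at P4 it was higher by 1.06. The summed level of the 24 genes was 7901 CPM in WT and 7403, 7171 and 7173 in cKO.

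Amh, the Sertoli-cell hormone that regresses the Müllerian ducts, rose from 194 and 197 CPM to 328, 408 and 432, a change of 0.99 ± 0.26 that was -0.28 with offsets. Nr5a1, a steroidogenic factor of Sertoli and Leydig cells, rose by 0.77, and was at 0.04 with offsets. Among 15 Leydig-cell genes 1 rose and 2 fell, where 7.26% of all genes were higher and 9.72% lower. Nr5a1 rose, while Lhcgr, the luteinising hormone receptor, and Cyp51, a sterol enzyme, fell, with log2 fold changes of -1.18 and -0.84. Star, which brings cholesterol into mitochondria, and Insl3, the Leydig-cell peptide, had values of -0.35 and 3.63 and neither passed (adjusted p 0.458 and 0.0606). Insl3 stood at 1.28 CPM in cKO replicate 1 and at 8.37 and 9.14 in the other two.

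Of 14 peritubular myoid genes 3 rose and 1 fell, where 7.26% of all genes were higher and 9.72% lower. Mylk, the kinase that activates smooth-muscle myosin, had 875 and 887 CPM in WT and 456, 298 and 350 in cKO, a log2 fold change of -1.26 ± 0.24 (adjusted p 0.00922). It was -1.35 with offsets and -1.64 ± 0.20 without cKO replicate 1 as well (adjusted p 0.00332). Myl9 and Des, other smooth-muscle genes, rose by 1.02 and 0.92, and were at 0.21 and 0.40 with offsets. In the interstitial list 3 of 17 rose and 2 fell, and Igf1 fell by 1.20, with -0.04 after offsets. Endothelial genes gave 3 higher and 0 lower of 17, macrophage genes 0 higher and 1 lower of 16, and cell-junction genes 0 higher and 5 lower of 19. Jam2 and Tjp1 of the junction list fell, with log2 fold changes of -1.26 and -0.92, and were at -0.71 and -0.41 with offsets. Of 24 activin, inhibin and TGF-beta genes 5 fell and 0 rose, among them the receptors Bmpr2, at -1.45, and Tgfbr1, at -1.20.

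Single markers of blood and of ducts were lower in cKO. Alas2, the haem synthesis enzyme of erythroid cells, had 14.5 and 15.3 CPM in WT and 2.19, 2.59 and 2.92 in cKO, and its change of -2.54 ± 0.40 (adjusted p 0.00642) was -2.85 with offsets. Of the 9 erythroid genes 3 were tested and 1, Alas2, was called. The 3 summed to 17.8 CPM in WT and 2.43, 2.89 and 3.35 in cKO. Of 10 haemoglobin genes in the table, 8 had no read in any P7 library. Together the 10 had 2 reads in the P7 WT libraries and 4 in the P7 cKO libraries, too few to show a direction. Lcn5, an epididymal lipocalin, had 2.55 and 3.30 CPM in WT and 0.33, 0.20 and 0.05 in cKO, a change of -3.92 ± 0.96, and it was the only called gene of the 11 of efferent duct and epididymis, which summed to 30.4 CPM in WT and 28.5, 34.7 and 29.5 in cKO. The part of blood or attached duct in other results was not tested.

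The genes with the largest changes are of several kinds. Rbmxl2, a germ-cell RNA-binding protein, had 10.3 and 5.65 CPM in WT and 52.4, 52.8 and 34.6 in cKO, a change of 2.55 ± 0.38 that was 1.14 with offsets. Lmtk3 and Matn4 rose by 2.54 and 2.44 and were at 1.42 and 1.54 with offsets. Eps8l1, an actin regulator of epithelia, had 0.92 and 0.58 CPM in WT and 12, 5.95 and 6.08 in cKO, a change of 3.42 ± 0.76 and of 3.04 with offsets, and it was higher by 2.12 at P4. Mylk2 rose by 2.94 from values under 0.28 CPM. H60b had no read in WT and 1, 40 and 46 reads in cKO, so it rested on replicates 2 and 3. Erdr1 rose by 2.91, with 370 CPM in cKO replicate 1 against 143 and 122, and was at 1.03 with offsets.

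Vnn1, an enzyme of coenzyme A turnover known in Sertoli cells of the young testis, had 151 and 155 CPM in WT and 59.2, 16.9 and 22.7 in cKO. Its change of -2.22 ± 0.55 (adjusted p 0.0253) was -2.55 with offsets and without cKO replicate 1 (adjusted p 0.00664). Tbx22 fell by 2.20, with 13.2 CPM in cKO replicate 1 against 3.57 and 3.18. Meg3, an imprinted long noncoding RNA, had 298 and 304 CPM in WT and 862, 827 and 911 in cKO, a change of 1.52 ± 0.39 and of 1.79 with offsets. Krt18, a keratin named after its values were seen, had 2.41 and 2.65 CPM in WT and 4.53, 17.6 and 18.5 in cKO, a change of 2.42 ± 0.68.

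**Figure D4:**
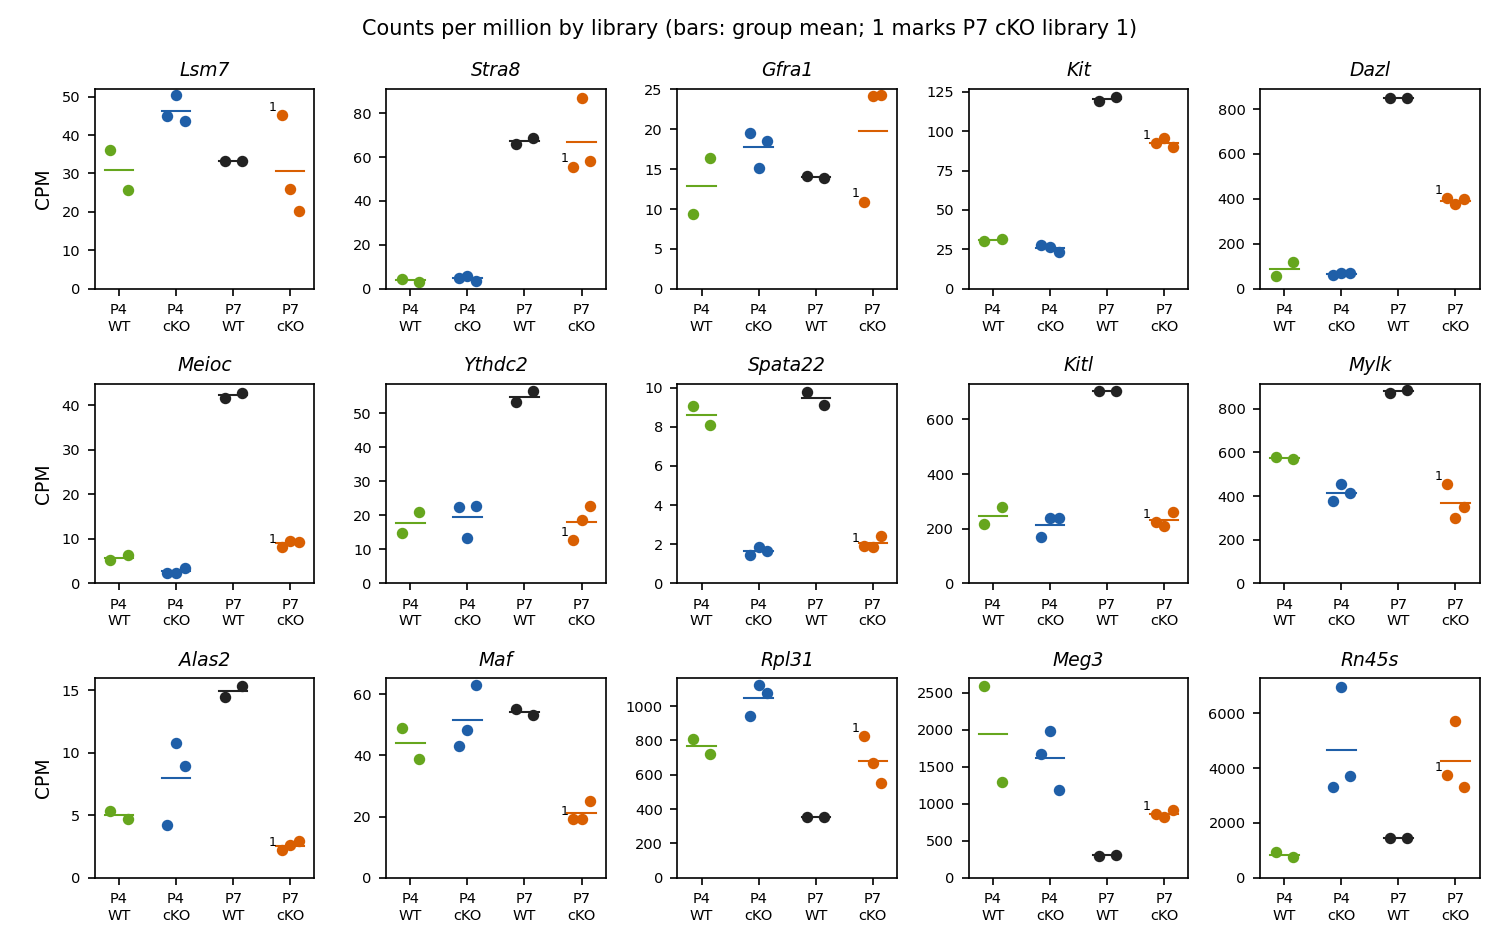
CPM (vertical axes, from 0) of selected genes in each of the 10 libraries, by stage and genotype, with a bar at the group mean and a 1 beside P7 cKO library 1. Lsm7 overlaps between the P7 groups, while Meioc, Spata22, Kitl, Mylk, Alas2 and Maf are lower in all 3 P7 cKO libraries and Rpl31, Meg3 and Rn45s are higher.

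A small set of called genes went against the composition trend, higher in cKO with a GC content in the 2 lowest quintiles or lower with a GC content in the 2 highest. These are 36 and 24 genes, and 18 and 23 were called with offsets and without cKO replicate 1. Removing a trend that opposes their sign moves such genes away from 0 by construction, so their values with offsets are a description and no support. The genes named here were chosen after their values were seen, among those whose transcript was within 1.25 times the counted exon length. On the lower side, Maf, a transcription factor of macrophages and stroma, had 55.2 and 53.2 CPM in WT and 19.3, 19.1 and 25.2 in cKO, a change of -1.35 ± 0.25. It was -1.62 with offsets and -1.61 ± 0.25 without cKO replicate 1 as well (adjusted p 0.00705). Chsy1, a chondroitin synthase, fell from 134 and 140 CPM to 48.5, 59.7 and 68.8.

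Slain1, a microtubule growth factor, Fzd5, a Wnt receptor, Epas1, the hypoxia factor HIF-2 alpha, and Lats2, a Hippo pathway kinase, fell, with log2 fold changes of -1.05, -1.04, -1.08 and -0.83. Ing1, a chromatin reader, fell by 0.89. All 5 passed by edgeR with offsets and without cKO replicate 1, at adjusted p values between 0.00444 and 0.0312. By the construction described above, these p values are a description and no support. Mylk and Alas2, described above, belong to the same set, and the same limit holds for their values with offsets.

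On the higher side 20 of the 36 had an average log2 CPM under 1 and 16 had no WT read. Of the well-read ones, Rpl31 had 352 and 353 CPM in WT and 824, 667 and 550 in cKO, a change of 0.95 ± 0.27 and of 1.15 with offsets. Rpl37 rose by 0.97. Eef1d, a translation elongation factor, had 128 and 134 CPM in WT and 303, 277 and 227 in cKO, a change of 1.04 ± 0.23 and of 1.31 with offsets. Mrpl57, a mitochondrial ribosomal protein, and Dbndd2 rose by 0.92 and 1.39. St14, a membrane serine protease of epithelia, had 1.34 and 1.84 CPM in WT and 4.56, 5.43 and 3.94 in cKO, a change of 1.54 ± 0.35. Of the 36 genes 4 were also called higher at P4, and of the 24 genes 1 was also called lower.

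The P4 contrast compares the other 5 libraries, but it comes from the same fit and so shares its estimate of spread with P7. There, 891 genes were higher in cKO (4.84%) and 760 lower (4.13%), 1651 in all (8.96%). Of these, 560 were called at both stages, 550 of them in the same direction, which is 17.6% of the P7 calls and 33.3% of the P4 calls. The P4 count rests on few libraries: it was 2 without P4 WT replicate 1, 816 without P4 WT replicate 2, 570, 13 and 11 without P4 cKO replicate 1, 2 or 3, and 4157 without P7 cKO replicate 1. The 550 are 329 higher and 221 lower genes, and 470 of them kept their sign at both stages with offsets. Across all genes tested the 2 sets of log2 fold changes had a Spearman's rho of 0.131, and of -0.0568 with offsets. Pearson's r was -0.00117 without offsets and -0.135 with them. Gm8615, a predicted gene named after its values were seen, had 38.5 and 40.7 CPM in the P7 WT libraries and 1.22, 0.30 and 0.34 in cKO, and 45 and 39.8 against 0.52, 0.21 and 0.16 at P4. It had the smallest adjusted p at P7 with offsets, 0.00662, and log2 fold changes of -6.04 at P7 and -7.15 at P4.

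The difference between the P7 and the P4 genotype effect passed for 0 genes by edgeR, with 4619 at an unadjusted p under 0.05 and a smallest adjusted p of 0.0626. DESeq2 called 1720 and limma-voom 0, and without P7 cKO replicate 1 edgeR called 1455. Sox9 had a difference of -1.88 (adjusted p 0.0626), Alas2 of -3.20 and Maf of -1.58 at the same adjusted p. No gene's genotype effect is therefore called different between the stages by the test used here.

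**Figure D5:**
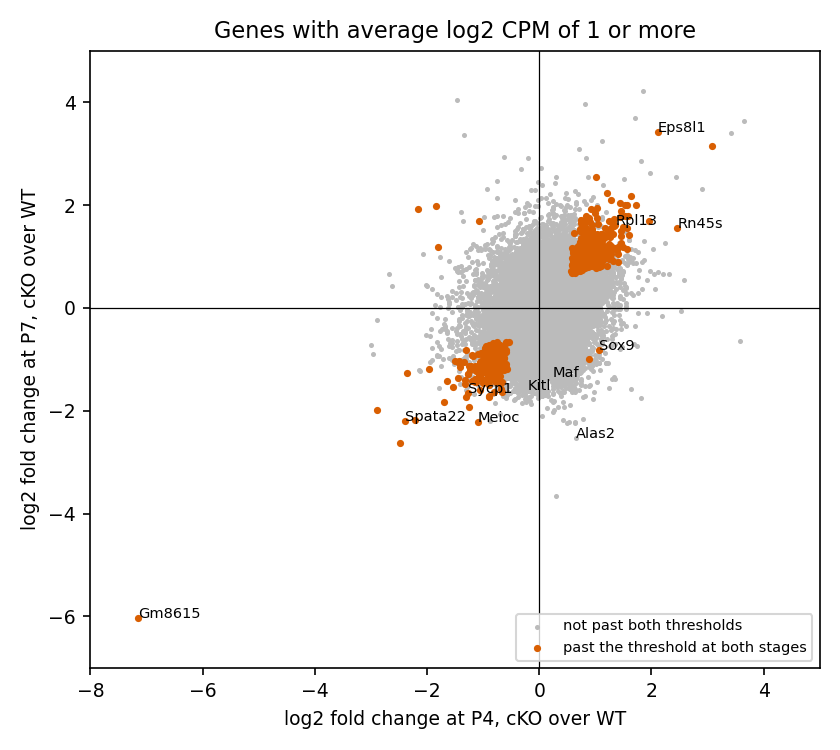
Log2 fold change of cKO over WT at P7 (vertical axis) against the same at P4 (horizontal axis), 1 point per gene averaging at least 1 on the log2 CPM scale, with genes past the threshold at both stages in orange. Gm8615 lies far below 0 on both axes, Spata22 and Meioc are lower at both stages, and Alas2, Kitl and Maf are low at P7 and near or above 0 at P4.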

How the data were processed

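The authors deposited 1 table of raw read counts for 25239 genes with coordinates and exon lengths, per the file header. Build GRCm38 (mm10), alignment with STAR 2.7.11a and counting with featureCounts of Subread 2.0.6 are named in the submitters' processing notes, beside Trim Galore 0.6.10 and SAMtools 1.6. Of the nonzero counts under 50, 67.8% to 80% were even, where chance gives about 50%, so reads appear to have been counted per mate. Libraries held 28799371 to 41797353 reads. Floors cover counting error only, while each SE also takes in the spread between libraries. Strand was not given in the sources used here, so overlapping genes and antisense genes cannot be told apart.

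The main test was edgeR 4.0.16 (R 4.3.3), quasi-likelihood, with TMM factors and the default expression filter (minimum count 10), on 9 samples in 4 groups with 5 residual degrees of freedom, the P7 WT libraries summed. Benjamini-Hochberg adjusted p under 0.05 counted as called, and each SE is derived from the F statistic. Simulated data of the same design held 200 changed genes among 18419. The test recovered 24 of 100 genes changed by a log2 of 1 and 93 of 100 changed by a log2 of 2. Of its 124 calls 7 were false. The simulated samples carried no GC or length trend, so these counts do not measure false calls in the P7 comparison itself.

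Alternatives were RLE factors, library totals, no filter, a minimum count of 50, DESeq2 1.42.0, limma 3.58.1 (voom), the P7 libraries alone, 10 separate libraries with and without a replicate block, length and GC offsets, and leaving out each library. The offsets are, per library, a smooth trend (mgcv 1.9.3) of the gene's deviation on log exon length and GC content, fitted on genes of average log2 CPM of 1 or more. GC content came from the GENCODE M21 transcript nearest in length to the counted exons. This replaced the longest transcript after results with the latter had been seen, since many longest transcripts were unlike the counted exons, and the earlier definition is kept as an alternative. GC was found for 24715 of 25239 genes, and the length was within 1.25 times for 21578.

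The members and all 55 gene lists were chosen with earlier results of these data known. Genes named by rule were the 12 highest and 12 lowest called genes of average log2 CPM of 1 or more on 1 side in every library, those also called with offsets, up to 6 genes of smallest p per list, and 16 genes given whatever their result, from which the text takes those it describes. Others are said to be named with their values known. Spermatid, erythroid and other lists describe RNA that the tissue could hold. Coding sequences came from GENCODE M21. Some results are not reported here.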

Additional observations from a re-analysis of the deposited data

How the results depend on the processing

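The P7 calls depended on the treatment of base composition, on the count of WT samples and on single libraries. Against 3129 called genes (1338 higher, 1791 lower), the length and GC offsets left 3 (0 higher, 3 lower), and 2 (0 higher, 2 lower) with the GC content of the longest transcript, an alternative added after the data were seen. Offsets with P7 cKO library 1 left out, also added after the data were seen, gave 706 (267 and 439). The P7 libraries alone gave 0 (0 and 0), with 4834 genes at an unadjusted p under 0.05. DESeq2 gave 2131 higher among 4294 calls. Taking the 10 libraries as separate samples gave 6905 (3648 and 3257). The replicate block on those 10 libraries gave 6025 (2987 and 3038), but the replicate numbers share no more than a number here and the P7 WT libraries agree within little more than counting noise. Leaving out 1 library in turn gave 961 to 4921 calls, 323 to 2370 higher and 638 to 2551 lower, lowest without P7 cKO replicate 2 and highest without P7 cKO replicate 1. It also gave 2012 (731 higher) without P4 cKO replicate 2.

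The test of the difference between stages called 0 genes, and 1 with offsets under either GC definition, 220 with offsets and without P7 cKO library 1, 3 with library totals, 431 with no filter, 1720 with DESeq2, 3105 with 10 separate libraries and 1175 with the replicate block. Leaving out 1 library gave 0 to 1455, the highest without P7 cKO replicate 1, with 716 without P4 WT replicate 2. The P4 calls, 1651, were 3020 with DESeq2, 2895 with 10 libraries, 500 with the replicate block, 551 and 574 with offsets under the nearest and the longest transcript, 4204 with offsets and without P7 cKO library 1, and 2 to 4157 with 1 library left out. The causes were not tested.

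Of the 109 named genes 97 were called, and over 22 alternatives 91 of these kept their direction in each, while 0 stayed past the threshold in each. The reversals, as log2 fold changes, were as follows. With length and GC offsets the values were 0.50 for Id4, 0.33 for Ddx4, 0.071 for Star, -0.067 for Cdkn1a, -0.12 for Sox3, 0.072 for Sycp2, 0.061 for Tex15, 0.15 for Rnf17 and -0.28 for Amh. With the GC content of the longest transcript they were 0.46 for Id4, 0.11 for Ddx4, 0.032 for Sycp3, 0.038 for Star, -0.12 for Cdkn1a, -0.14 for Sox3, 0.031 for Sycp2, 0.041 for Tex15, 0.14 for Rnf17, -0.31 for Amh and -0.22 for Cox6a1. With offsets and without P7 cKO library 1 they were 0.0083 for Stra8, -0.13 for Zbtb16, 0.30 for Id4, 0.42 for Ddx4, 0.26 for Star, -0.0021 for Cdkn1a, -0.065 for Sox3 and -0.15 for Amh. The log2 fold change of Stra8 was 0.10 with library totals, 0.0247 with a minimum count of 50, 0.014 with 10 libraries and 0.072 with the replicate block. Leaving out 1 library gave Stra8 values of -0.24 to 0.11 and Lsm7 values of -0.53 to 0.096. Lsm7 was at 0.064 with the replicate block.

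The depth of 28872557 to 39283368 reads per P7 library limits genes near 0 CPM. A gene with no read in the summed WT sample can hold up to 0.052 CPM at a floor of 3 counts, and more if both mates of a pair were counted, so folds against such genes are lower bounds on that floor. The GC content is unsure where the reference transcript differs in length from the counted exons, as for Sf3b5, Zxda, Rab21 and Gm8615.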

Other observations

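Some gene groups and positions of the P7 comparison are given here as values. Of 44 genes of cell cycle and replication 3 rose and 2 fell in cKO, with a median log2 fold change of 0.31, of 0.39 with length and GC offsets, and 4 were higher and 0 lower with offsets and without cKO replicate 1. Of 25 interferon-response genes 1 rose and 1 fell at P7, while 1 rose and 8 fell at P4, where 4.84% and 4.13% of all genes were higher and lower, against 7.26% and 9.72% at P7. The difference between the stages was not tested for the list. Of 25 genes of cholesterol synthesis and uptake 3 rose and 5 fell, of 21 genes of the retinoic acid pathway 3 rose and 0 fell, and in the integrated stress response, with 19 genes, 5 rose and 0 fell. The last list had a median of 0.47, which was 0.05 with offsets. Of 22 p53 targets 2 rose and 3 fell, and Cdkn1a and Mdm2, both direct targets of p53, had values of 0.35 and -0.47 that did not pass (adjusted p 0.564 and 0.125).

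Immediate early genes, which respond within minutes to handling of a tissue, summed to 1248 CPM in WT and 2755, 1318 and 1291 in cKO, so cKO replicate 1 stood apart. Of the 25 tested 1 rose and 1 fell, where 7.26% of all genes were higher and 9.72% lower. Without cKO replicate 1 the counts were 4 and 8, where 12.9% of all genes were higher and 13.9% lower.

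By chromosome, genes of chromosome X had a median log2 fold change of -0.35, and 139 of the 737 tested (18.9%) were lower in cKO and 10 higher. With offsets the median was -0.035, and the median GC content of these genes was 45.9%. Chromosomes 7 and 17 had medians of 0.40 and 0.35, with 13.9% and 14.4% of their genes higher and median GC contents of 53.3% and 52.9%.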
